A study of Mus musculus with 6 samples.

Results

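The circadian clock genes described here are the 10 genes *Per1*, *Per2*, *Per3*, *Cry1*, *Cry2*, *Arntl*, *Clock*, *Nr1d1*, *Nr1d2* and *Dbp*, taken by gene name out of the 54532 genes in the table, at a time when earlier results of these data were known. All 10 occurred once in it, and all 10 passed the filter on low values that left 14463 genes for testing. They were measured by RNA-seq in granulosa cells (GCs), the somatic cells that surround the oocyte and make oestrogen, from 3-week-old female ICR mice that had received 5 IU of PMSG, a gonadotropin that drives follicle growth, 22 h before treatment. The PBS group (3 samples) was injected with phosphate buffered saline and the CTX group (3 samples) with 120 mg/kg cyclophosphamide, a DNA alkylating drug, and GCs were collected 6 h later. Each sample pooled the GCs of 3 mice. The mice lived under a light/dark cycle, and the clock time of injection and collection is not given in the sources used here. With 1 time point in each group, a change in the level of a cycling gene and a change in its phase cannot be told apart.

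The molecular clock is a feedback loop of transcription factors that most cells hold. CLOCK and BMAL1 (the product of *Arntl*) bind E-boxes and switch on the *Per* and *Cry* genes, whose proteins return to the nucleus and inhibit them. In a second loop they also switch on *Nr1d1* and *Nr1d2*, which encode the repressors REV-ERBα and REV-ERBβ that act on *Arntl* through ROR elements, and *Dbp*, whose protein activates genes through D-boxes. GCs are known to hold such a clock, and gonadotropins are known to act on it.

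The sequences through which these loops act are shown for the members whose promoter windows held one of the motifs searched. RefSeq windows on GRCm38.p6, from 250 bases before a transcription start to 50 bases after it, were at hand for 9 of the 10 members, all but *Per2*, and these 9 had 13 windows. Both strands were searched for the E-box CACGTG, the related E-prime-box CACGTT, the D-box TTATGTAA, the ROR elements TAGGTCA and TGGGTCA, the cAMP response element (CRE) TGACGTCA and its core TGACG, which lies within the full element. Capitals mark the motif, and every stretch is written 5′ to 3′ on the gene's own strand. The *Per1* windows belong to separate starts of the same gene, and the *Cry1* and *Cry2* stretches are given for comparison with those of genes that stood higher after CTX treatment.
Per1, first start, chr11:69098699-69098813, plus strand: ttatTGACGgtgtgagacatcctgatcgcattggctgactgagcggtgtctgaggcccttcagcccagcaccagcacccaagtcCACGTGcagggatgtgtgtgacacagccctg
Per1, second start, chr11:69099995-69100049, plus strand: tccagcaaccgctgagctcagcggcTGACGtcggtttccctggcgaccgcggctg
Per3, chr4:151044791-151044895, minus strand: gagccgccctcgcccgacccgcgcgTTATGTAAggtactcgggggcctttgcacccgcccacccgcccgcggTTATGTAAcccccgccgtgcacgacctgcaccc
Nr1d1, chr11:98775378-98775430, minus strand: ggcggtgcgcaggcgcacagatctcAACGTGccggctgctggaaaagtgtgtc
Cry1, chr10:85185084-85185158, minus strand: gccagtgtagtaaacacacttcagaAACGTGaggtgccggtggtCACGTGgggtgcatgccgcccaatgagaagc
Cry2, chr2:92434205-92434260, minus strand: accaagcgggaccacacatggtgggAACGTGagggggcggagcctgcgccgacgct
Arntl, second start, chr7:113207530-113207558, plus strand: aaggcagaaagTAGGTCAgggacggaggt

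The E-box lay at position -166 from the first start of *Per1* and at position -60 of *Cry1*, so that 2 of the 9 members with a window held it, against 8.09% of the 27025 genes with a window. The D-box occurred in *Per3* alone among the 9, at positions -205 and -158, and 1.11% of all genes held it. The E-prime-box was found in *Cry1*, *Cry2* and *Nr1d1* (5.44% of all genes). A ROR element lay 31 bases into the transcribed sequence of *Arntl*, in an annotated untranslated exon, and 2.97% of all genes held TAGGTCA. No window of the 9 held TGGGTCA or the full CRE, while the TGACG core was found in *Per1*, *Cry1* and *Cry2* (23.1% of all genes). These are matches of letters in a short window and do not show binding. The windows of *Nr1d1* and *Cry2* start where RefSeq places the gene, and no GENCODE M21 transcript of these genes holds the first bases of that start.

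Among the 10 members, *Nr1d1*, *Per1*, *Per3* and *Nr1d2* were higher in each CTX sample than in each PBS sample, by 2.66-fold, 1.69-fold, 1.40-fold and 1.32-fold. None of the 10 passed the test across all genes, with *Per1* and *Nr1d1* closest to the threshold (adjusted p = 0.057 and 0.060, limma with Benjamini-Hochberg adjustment over 14463 genes). *Nfil3* and *Tef*, which encode bZIP factors that share DNA sites with DBP, were the partner genes that rose, by 3.11-fold and 1.44-fold. The count of 0 of 10 members past an adjusted p of 0.05 stands beside 1.76% of all genes tested, 1.40% on the higher side and 0.360% on the lower side. Past an unadjusted p of 0.05 there were 4 of 10, all higher after CTX treatment, against 19.6% of all genes tested in either direction and 10.5% on the higher side. With limma's voom on reads rebuilt from the FPKM values, *Per1* and *Per3* were past the adjusted threshold (adjusted p = 0.042 and 0.044), and *Nr1d1* was just short of it (adjusted p = 0.051). With no filter on low values the limma adjusted p was 0.092 for *Per1*, 0.220 for *Per3* and 0.1001 for *Nr1d1*, and with a block on the replicate number it was 0.206, 0.256 and 0.169. Groups that did not overlap were seen in 4 of 10 members on the higher side and in 0 on the lower side, where 15.0% and 14.1% of all genes tested, 29.2% in all, had such a separation. The median log2 fold change was 0.23 over the members and -0.01 over all genes tested.

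**Figure D1:**
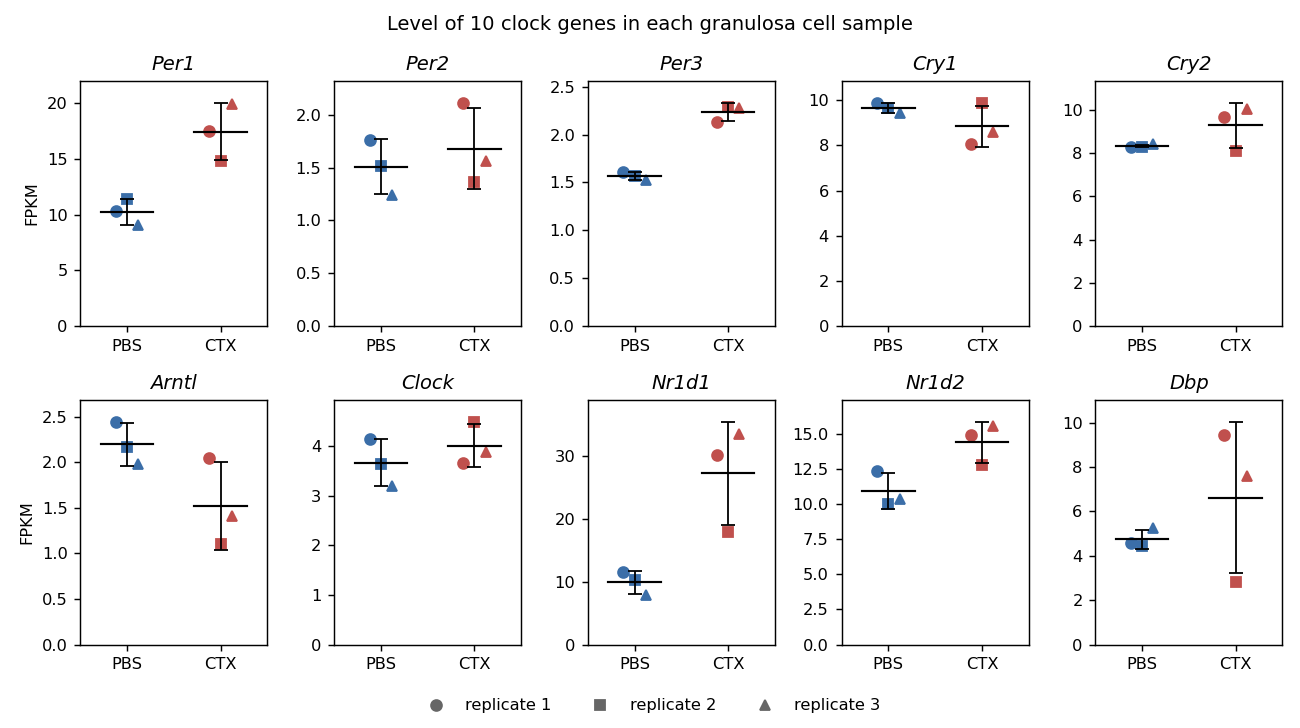
FPKM (vertical axes, each from 0) of the 10 clock genes in the 3 PBS samples (blue) and the 3 CTX samples (red), with the replicate number as the marker shape and bars at the mean ± SD. *Nr1d1*, *Per1*, *Per3* and *Nr1d2* lie higher in all CTX samples than in all PBS samples, and *Dbp* spreads from 2.82 to 9.46 FPKM among the CTX samples.

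The libraries were described by their depth, their spread and markers of cell types. The rebuilt reads on genes came to between 16005869 and 18455011 per sample, and members had from 118 to 2013 reads in a sample. CTX replicate 2 stood apart on the first principal component (46.8% of the variance), at 74.7 against -26.6 to 13.2 for the other 5 samples. All 9 granulosa markers listed were detected in all samples, with *Inha* between 8556 and 10402 FPKM. Of these 9, 0 passed the test, against 1.76% of all genes tested. Of the 9, 6 were lower and 1 was higher in each CTX sample than in each PBS sample. Among all genes tested these shares were 14.1% and 15.0%. The log2 fold change was negative for 7 of the 9 and positive for 2. *Cyp19a1* (aromatase) was 59.2 to 62.4 FPKM in the PBS samples and 47.6, 6.61 and 32.5 FPKM in CTX replicates 1, 2 and 3. *Amh* and *Amhr2* went the other way and were highest in CTX replicate 2. *Amh* had 48.4 to 51.1 FPKM after PBS and 54.3, 178.7 and 85.5 FPKM in CTX replicates 1, 2 and 3. *Amhr2* had 73.6 to 79.9 FPKM after PBS and 79.3, 142.4 and 85.5 FPKM in these CTX replicates. Of 8 immune markers, 6 were tested and 0 passed the test, and their summed level was 21.5 to 24.1 FPKM in the PBS samples and 35.5, 66.7 and 25.4 FPKM in CTX replicates 1, 2 and 3. The pan-leukocyte marker *Ptprc* was at most 0.098 FPKM. Of the 6 tested immune markers, 5 had positive log2 fold changes and 1 a negative one, with a median of 0.74. The 3 genes *Lyz2*, *Cd68* and *Tyrobp* were higher in each CTX sample than in each PBS sample, as were 15.0% of all genes tested. *Lyz2* had 13.1 to 14.3 FPKM after PBS and 22.9, 45.8 and 14.7 FPKM in CTX replicates 1, 2 and 3. The summed theca markers (35.7 to 38.3 FPKM after PBS, 9.26 to 34.4 FPKM after CTX treatment) and endothelial markers (6.64 to 7.22 and 2.61 to 5.94 FPKM) were lowest in CTX replicate 2, and 0 of their 3 and 2 tested genes passed. The theca sum was mostly *Cyp17a1* (30.8 to 34.4 FPKM after PBS, 29.6, 1.25 and 12.4 FPKM in CTX replicates 1, 2 and 3). The other 2 tested theca markers, *Insl3* (3 to 13 reads) and *Ptch1*, had positive log2 fold changes (0.89 and 0.40). *Ptch1* was highest in CTX replicate 2 (6.55 FPKM). The summed oocyte markers (32.1 to 67.97 and 43.7 to 77.9 FPKM) and red cell markers (311.6 to 446.5 and 131.2 to 489.9 FPKM) overlapped between the groups. The part of these differences in the results on the clock genes was not tested, and fewer cells of a type and less RNA per cell cannot be told apart in such samples.

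In the PBS samples the members fell into an upper set of 8.34 to 10.9 FPKM and a lower set of 1.51 to 4.75 FPKM. Mean levels were 10.9 ± 1.29 FPKM for *Nr1d2*, 10.3 ± 1.16 for *Per1*, 9.95 ± 1.85 for *Nr1d1* and 9.65 ± 0.208 for *Cry1* (mean ± SD, n = 3), and the ranges of neighbours in this order overlapped. *Cry2* followed with 8.34 ± 0.0628 FPKM, *Dbp* with 4.75 ± 0.432, *Clock* with 3.67 ± 0.474 and *Arntl* with 2.20 ± 0.236, each with a range apart from its neighbours. *Per3* (1.57 ± 0.0385 FPKM) and *Per2* (1.51 ± 0.260) were lowest and overlapped. After CTX treatment *Nr1d1* had the highest mean (27.3 ± 8.23 FPKM) and *Arntl* the lowest (1.52 ± 0.486), with *Per1* second (17.4 ± 2.57). FPKM is scaled to gene length, here that of all annotated exons of a gene together, whichever transcripts were present. The order of levels between genes is therefore approximate.

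The period genes encode the proteins that carry the inhibitory signal of the loop, and *Per1* is also known as a gene that many stimuli switch on early. *Per1* (chromosome 11, 69095217 to 69109960, plus strand) was measured at 10.3, 11.4 and 9.06 FPKM in PBS replicates 1, 2 and 3, and at 17.5, 14.8 and 19.95 FPKM in CTX replicates 1, 2 and 3. The lowest CTX sample lay above the highest PBS sample. Its log2 fold change on the log2(FPKM + 0.1) scale was 0.76 (SE 0.14, 95% confidence interval 0.43 to 1.08, limma adjusted p = 0.057). *Per1* without CTX replicate 2 was past the threshold, with a log2 fold change of 0.87 (limma adjusted p = 0.018), and without any other sample it was not (adjusted p = 0.070 to 0.223).

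*Per3* (chromosome 4, 151003652 to 151044665, minus strand), the gene whose window holds 2 D-boxes, had 1.61, 1.57 and 1.53 FPKM under PBS. It had 2.13, 2.29 and 2.28 FPKM in the CTX samples, from 371 to 393 reads each. The samples of each group lay close together, and the groups did not overlap. The log2 fold change of *Per3* was 0.48 (SE 0.11, 95% confidence interval 0.21 to 0.76, limma adjusted p = 0.107), and it was past the threshold without the trend of the spread on the level (adjusted p = 0.047). Leaving out any 1 sample left the log2 fold change of *Per3* between 0.47 and 0.52 and its limma adjusted p between 0.090 and 0.362.

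*Per2* (chromosome 1, 91415982 to 91459324, minus strand) had 1.76, 1.52 and 1.24 FPKM under PBS, against 2.11, 1.37 and 1.56 FPKM in the CTX samples. The groups overlapped, and CTX replicate 1 was the highest of the 6 samples. The log2 fold change of *Per2* was 0.14 (SE 0.21, 95% confidence interval -0.38 to 0.65), and without CTX replicate 1 it was -0.03. This interval includes a change as large as that of *Per3*.

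The cryptochromes, the partners of the period proteins and the stronger inhibitors of CLOCK and BMAL1, overlapped between the groups. *Cry1* (chromosome 10, 85131700 to 85185064, minus strand) had 9.86, 9.63 and 9.45 FPKM after PBS and 8.08, 9.85 and 8.59 FPKM after CTX treatment. *Cry2* (chromosome 2, 92403646 to 92434043, minus strand) had 8.30, 8.30 and 8.41 FPKM after PBS and 9.67, 8.12 and 10.1 FPKM after CTX treatment. For both genes CTX replicate 2 lay with the PBS samples or at their edge, while the other CTX samples were lower for *Cry1* and higher for *Cry2*. The log2 fold changes were -0.13 (95% confidence interval -0.35 to 0.09) and 0.15 (-0.08 to 0.38). As folds of CTX over PBS, these intervals ran from 0.786 to 1.06 for *Cry1* and from 0.944 to 1.30 for *Cry2*.

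The activators of the loop did not pass the test. *Arntl* (chromosome 7, 113207465 to 113314126, plus strand) had 2.45, 2.17 and 1.98 FPKM under PBS, against 2.05, 1.101 and 1.41 FPKM in the CTX samples. CTX replicates 2 and 3 lay lower than all PBS samples, and CTX replicate 1 lay among them. The log2 fold change of *Arntl* was -0.54 (SE 0.23, 95% confidence interval -1.104 to 0.02, limma adjusted p = 0.269), and without CTX replicate 2, the lowest sample, it was -0.34. *Clock* (chromosome 5, 76209868 to 76304792, minus strand) had 4.15, 3.65 and 3.21 FPKM after PBS and 3.66, 4.50 and 3.89 FPKM after CTX treatment, and the groups overlapped. On the log2 scale *Clock* differed by 0.13 (95% confidence interval -0.19 to 0.45).

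Of the REV-ERB genes, *Nr1d1* (chromosome 11, 98767932 to 98775333, minus strand) had the largest fold change of all members. It had 11.6, 10.3 and 7.95 FPKM in the PBS samples, from 635, 582 and 396 reads. It had 30.3, 18.0 and 33.6 FPKM in the CTX samples, from 1687, 981 and 1852 reads. CTX replicate 2 was well below the other CTX samples and still above the highest PBS sample. The log2 fold change of *Nr1d1* was 1.41 (SE 0.26, 95% confidence interval 0.79 to 2.04, limma adjusted p = 0.060). It was the only member with a change of over 2-fold, the size the study asks of a differentially expressed gene, and 0.961% of all genes tested met both criteria, 0.802% on the higher side. *Nr1d1* did not meet both in the reported fit. With all samples it met both at a mean FPKM of at least 5 (limma adjusted p = 0.048) and with arrayWeights, a weighting of samples that did not converge. It also did so without CTX replicate 2, with a log2 fold change of 1.69 (limma adjusted p = 0.0053), in a fit where 528 genes were past the adjusted threshold in place of 254. Without any other sample *Nr1d1* had an adjusted p of 0.076 to 0.238.

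The 3′ end of *Nr1d1* overlaps *Thra*, the gene of a thyroid hormone receptor, on the opposite strand, and the genes share 263 exonic bases, 8.55% of those of *Nr1d1*. Strandedness of the counting is not given in the sources used here, and without strand the reads of such bases cannot be told apart. *Thra*, named here for this overlap, had 16.5 to 18.8 FPKM in the PBS samples and 21.1, 29.0 and 24.96 FPKM in CTX replicates 1, 2 and 3. It was higher in each CTX sample than in each PBS sample, as were 15.0% of all genes tested (log2 fold change 0.49, limma adjusted p = 0.129). The part of *Thra* reads in the values of *Nr1d1* was not tested.

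*Nr1d2* (chromosome 14, 18204054 to 18239127, minus strand), the paralog of *Nr1d1*, had 12.4, 10.03 and 10.4 FPKM after PBS and 14.9, 12.8 and 15.6 FPKM after CTX treatment. The groups did not overlap, by a small margin between PBS replicate 1 and CTX replicate 2. On the log2 scale *Nr1d2* differed by 0.40 (SE 0.12, 95% confidence interval 0.12 to 0.68, limma adjusted p = 0.159).

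*Dbp* (chromosome 7, 45705088 to 45710203, plus strand), the output factor that acts on D-boxes, had the widest spread of the members after CTX treatment. It had 4.57, 4.43 and 5.24 FPKM under PBS, against 9.46, 2.82 and 7.59 FPKM in the CTX samples. CTX replicates 1 and 3 lay above all PBS samples, and CTX replicate 2 lay below them. The coefficient of variation of *Dbp* was 9.10% under PBS, against 51.6% in the CTX samples, where all genes tested had medians of 7.35% and 12.9% over all genes tested. The log2 fold change was 0.31 with a 95% confidence interval of -0.72 to 1.34 (limma adjusted p = 0.699). *Dbp* without CTX replicate 2 was past the threshold, with a log2 fold change of 0.83 (adjusted p = 0.027), and without CTX replicate 1 it was -0.03 (adjusted p = 0.970). *Dbp* shares 539 exonic bases (18.0% of its own) with *Sphk2* on the opposite strand, which had 11.8 to 13.2 FPKM after PBS and 10.3 to 11.2 FPKM after CTX treatment.

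Log2 ratios of 2 genes within a sample, each taken as FPKM + 0.1, were compared for 4 pairs. For *Nr1d1* over *Arntl*, a pair that is known to peak at opposite times, the ratio was 2.20, 2.20 and 1.95 under PBS, against 3.82, 3.91 and 4.48 in the CTX samples. The 3 CTX samples, replicate 2 included, lay above the PBS samples, with a difference of 1.95 (two-sided exact permutation test, p = 0.10, adjusted over the 4 ratios 0.20). Their SD was 0.359, against 0.142 for the PBS samples. The value of 0.10 is the smallest that 3 samples against 3 allow. With 1 added to the FPKM in place of 0.1, the difference for *Nr1d1* over *Arntl* was 1.69. For *Dbp* over *Arntl* the difference was 0.85 and the groups overlapped, with 1.28 in CTX replicate 2 and 2.15 and 2.35 in the other CTX samples (exact permutation p = 0.20, adjusted 0.267).

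Between paralogs, the ratio of *Per1* over *Per2* was 2.49 to 2.82 under PBS, against 2.99 to 3.59 in the CTX samples. The groups did not overlap, and the difference was 0.62 (exact permutation p = 0.10, adjusted 0.20). *Cry1* over *Cry2* was 0.17 to 0.25 in the PBS samples and -0.26, 0.28 and -0.23 in CTX replicates 1, 2 and 3, with a difference of -0.28 (exact permutation p = 0.40). CTX replicate 2 had the PBS pattern of the cryptochromes and the other CTX samples did not.

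**Figure D2:**
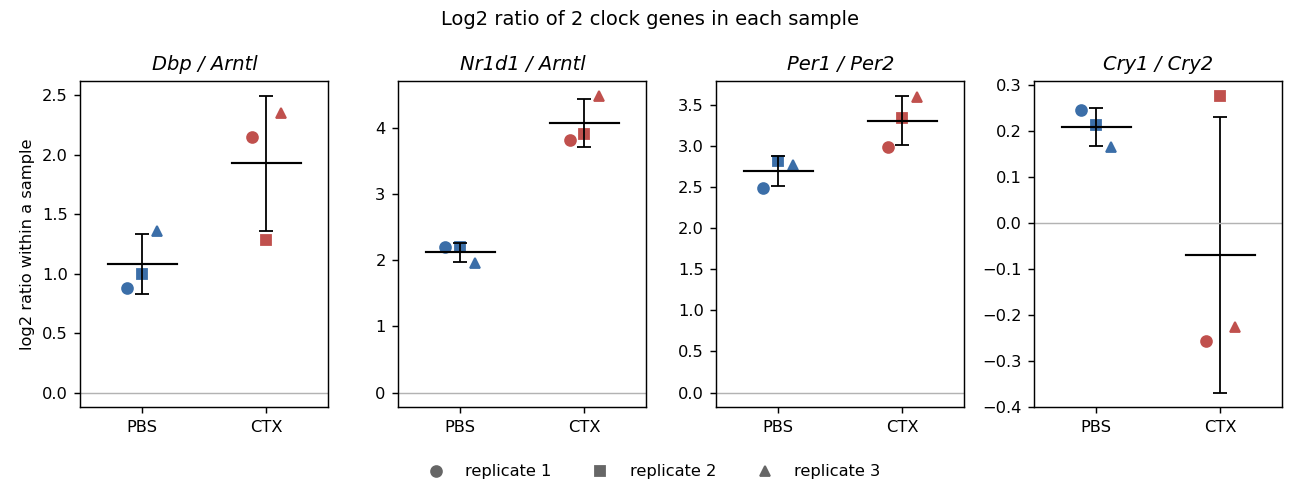
Log2 ratio of 2 clock genes (vertical axes) in each of the 3 PBS samples (blue) and the 3 CTX samples (red), with the replicate number as the marker shape, bars at the mean ± SD and a grey line at equal levels. *Nr1d1* over *Arntl* differs by 1.95 between the groups with no overlap, and CTX replicate 2 stands away from the other CTX samples for *Dbp* over *Arntl* and *Cry1* over *Cry2*.

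A further 11 partner genes of the clock, most of them encoding transcription factors, were described as a list, and 7 of the 11 passed the filter. Of these 7, 2 rose, 0 fell and 5 did not pass the test, and the median log2 fold change was 0.26. Among all genes tested, 1.40% rose and 0.360% fell, and the median was -0.01. *Nfil3*, which encodes E4BP4, a repressor that competes with DBP for D-boxes, had 11.2, 11.3 and 11.4 FPKM after PBS and 42.2, 28.8 and 36.7 FPKM after CTX treatment. This was a difference of 1.64 on the log2 scale (SE 0.14, limma adjusted p = 0.0041), and the call held in each of the 17 alternatives. *Tef*, an activator of the same family as DBP, had 12.7, 12.3 and 11.9 FPKM after PBS and 17.9, 17.2 and 18.1 FPKM after CTX treatment, which is 0.52 on the log2 scale (SE 0.06, limma adjusted p = 0.015). The call of *Tef* was lost without PBS replicate 1, 2 or 3 (adjusted p = 0.084, 0.109 and 0.089 from limma) and without CTX replicate 3 (adjusted p = 0.084), and with a replicate block it was lost as well (adjusted p = 0.127).

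The other 5 tested genes of this list had log2 fold changes of either sign. *Bhlhe40*, which encodes a repressor that acts on E-boxes, had 14.7 to 16.2 FPKM after PBS and 36.5, 19.5 and 38.1 FPKM in CTX replicates 1, 2 and 3 (log2 fold change 0.95, limma adjusted p = 0.137). *Ciart*, whose product inhibits CLOCK and BMAL1, had 6.45, 7.29 and 5.79 FPKM after PBS and 4.34, 2.04 and 4.20 FPKM after CTX treatment (log2 fold change -0.93, adjusted p = 0.176). *Npas2*, a paralog of *Clock*, had 0.69 to 1.01 FPKM after PBS and 0.11 to 0.65 FPKM after CTX treatment (log2 fold change -1.01, adjusted p = 0.345). For each of these 3 genes the groups did not overlap. Of the 7 tested partner genes, 4 were higher and 2 lower without overlap, against 15.0% and 14.1% of all genes tested. *Timeless*, which does not encode a transcription factor, was higher in every CTX sample than in every PBS sample, with a log2 fold change of 0.26 (limma adjusted p = 0.187). *Rora*, which encodes an activator that competes with the REV-ERBs, had -0.35 with groups that overlapped. *Arntl2*, *Rorb*, *Bhlhe41* and *Hlf* were below the filter.

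**Figure D3:**
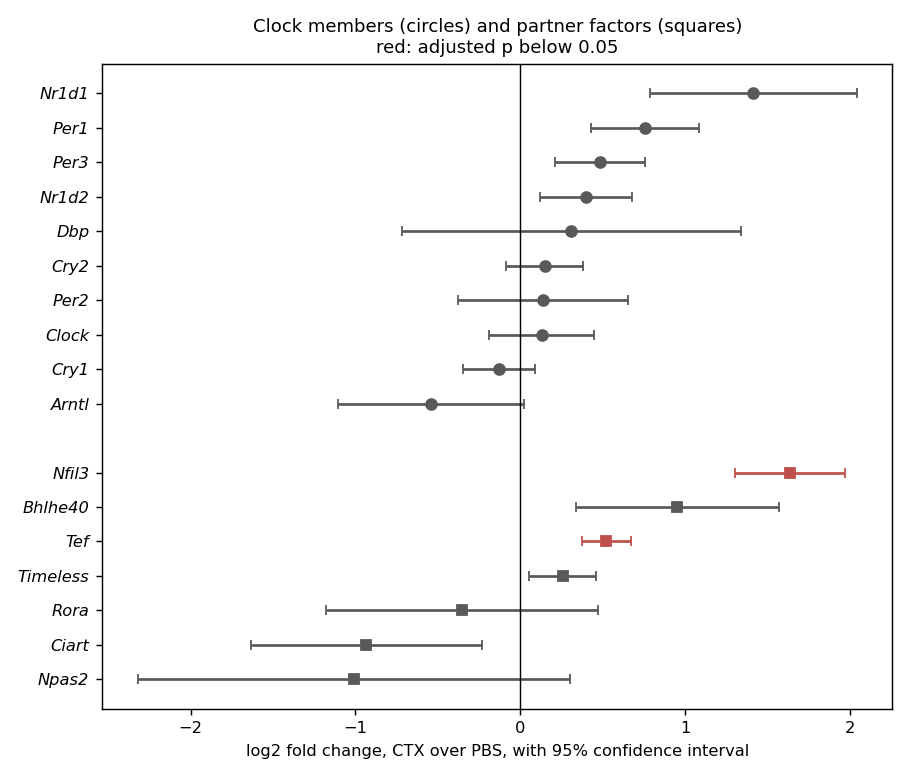
Log2 fold change of CTX over PBS (horizontal axis, on the log2(FPKM + 0.1) scale) with 95% confidence intervals for the 10 clock members (circles) and the 7 tested partner genes (squares), with genes past an adjusted p of 0.05 in red. *Nfil3* (1.64) and *Tef* (0.52) are past the threshold, and the unadjusted intervals of *Nr1d1*, *Per1*, *Per3* and *Nr1d2* lie above 0.

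The genes that act on clock proteins after translation varied little. Of 10 kinases, ubiquitin ligase subunits and other modifiers, 9 were tested, 0 passed the test, and their log2 fold changes lay between -0.05 and 0.18. Of 8 genes listed as clock outputs, 6 were tested, 1 rose and 0 fell, where 1.40% of all genes tested rose and 0.360% fell. The gene that rose was *Klf10*, which encodes a zinc-finger factor that also responds to TGF-β, from 2.32 ± 0.121 to 13.6 ± 5.59 FPKM (mean ± SD, n = 3; log2 fold change 2.43, limma adjusted p = 0.012). Its call was lost without PBS replicate 1, 2 or 3 (adjusted p = 0.077, 0.077 and 0.088) and without CTX replicate 3 (adjusted p = 0.063), and with a replicate block (adjusted p = 0.070). Over the 6 tested output genes the median was 0.22 on the log2 scale.

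**Figure D4:**
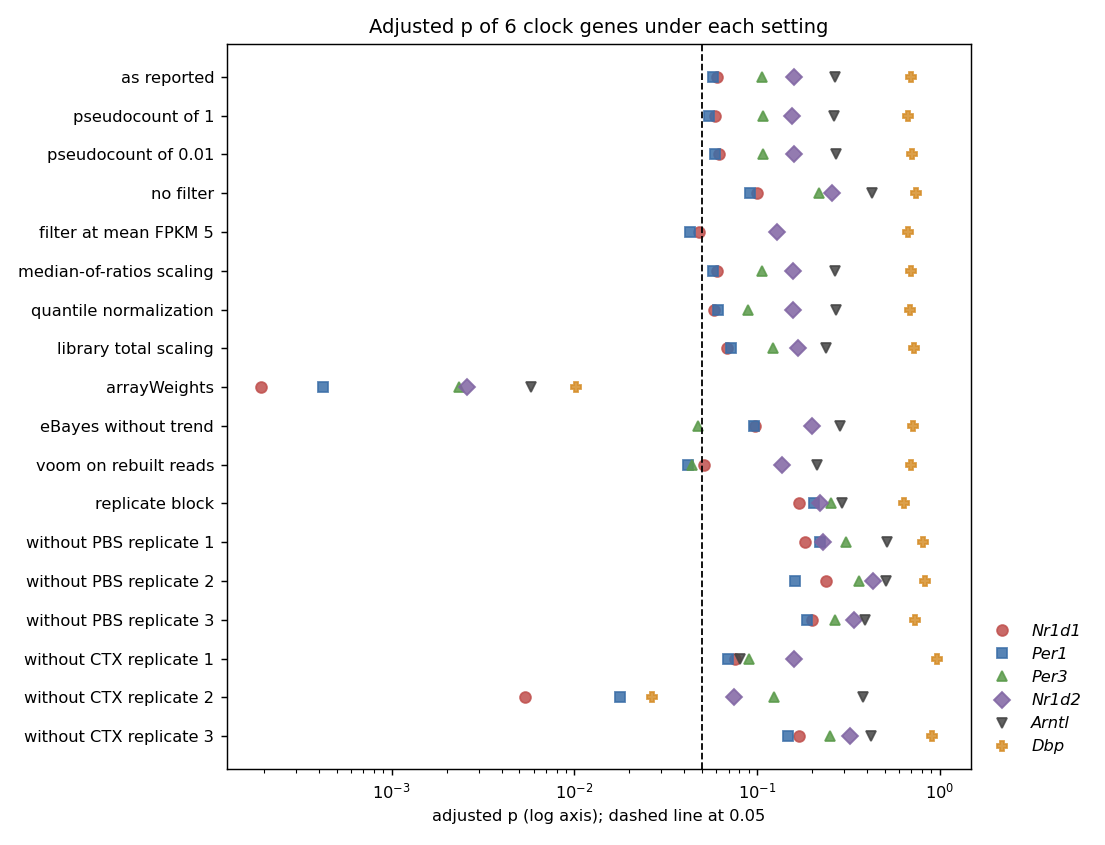
Adjusted p (horizontal log axis, dashed line at 0.05) of *Nr1d1*, *Per1*, *Per3*, *Nr1d2*, *Arntl* and *Dbp* in the reported fit and in each of the 17 alternatives (rows), with *Per3* and *Arntl* missing where the filter of a mean FPKM of 5 left them out. *Per1* and *Nr1d1* lie on either side of the line depending on the setting, from 4.2e-04 to 0.223 and from 1.9e-04 to 0.238.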

How the data were processed

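RNA from 6 GC samples was sequenced, and the table the authors deposited gives FPKM, which scales fragments to gene length and library depth, for 54532 genes. The submitters' processing notes list CASAVA 1.8, fastp, HISAT2 2.0.5, featureCounts 1.5.0-p3, DESeq2 1.20.0 and mm10 without saying what each did. The table also holds the authors' group means, fold changes and p-values, which were not used. FPKM times gene length gave whole reads for 100% of values above 0 (tolerance 0.01), and the values carry a scaling by factors of 0.982 to 1.03. Samples were grouped by their labels. Genes whose mean FPKM reached 0.5 were compared as log2(FPKM + 0.1) with limma 3.58.1 (trend) in R 4.3.3, two-sided. The pseudocount shrinks the fold changes of genes at low levels. Ratios were tested with SciPy 1.17.1, and figures drawn with matplotlib 3.10.9. The fit was also run on simulated data with the spread of the PBS samples in both groups. That run does not cover the wider spread of the CTX samples. Coordinates of the members equal those of GENCODE M21.

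All members are named, along with list genes past an adjusted p of 0.05 and the tested partner genes. Some other genes of the pathway and marker lists are named after their values were seen. A gene of the partner list is not reported here, and the list's counts leave it out. Members, lists and motifs were chosen with earlier results of these data known. Replicates differed by more than sampling noise (mean chi-square per gene 3.81 to 72.5). Alternatives were other pseudocounts (1 and 0.01), filters, scalings and weights, voom, a block on the replicate number and each sample left out. Nothing shows that same-numbered samples share mice, and their deviations correlated by 0.0058 to 0.056, so the block was an alternative only.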

Additional observations from a re-analysis of the deposited data

How the results depend on the processing

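Among the clock members, 0 were past an adjusted p of 0.05 in limma and 0 met the study's thresholds for differential expression in this fit. The authors' own p-values were not used, so their calls for the members are not given here. The first count was 2 at a mean FPKM of at least 5 (*Per1* and *Nr1d1*, with 6 members tested and 225 genes called in all), 2 with voom on rebuilt reads (*Per1* and *Per3*, 289 genes in all), 1 without the trend (*Per3*, 210 genes in all), 8 with arrayWeights and 0 to 3 with 1 sample left out. The 3 came without CTX replicate 2 (*Dbp*, *Nr1d1* and *Per1*). The second count was 1 (*Nr1d1*) at a mean FPKM of at least 5, with arrayWeights and without CTX replicate 2, and 0 in the other fits that left out a sample. arrayWeights did not converge and weighted CTX replicate 2 lowest (0.164) and CTX replicate 3 highest (16.6). The stricter filter tests fewer genes, and for the other settings the cause was not tested. Over all genes, 254 were past the threshold, 5753 with arrayWeights and 70 to 528 with 1 sample left out. The pathway lists had 12 calls, 24 with arrayWeights and 6 to 16 with 1 sample left out. With the replicate block there were 53 genes, 5 list calls and 0 members past the threshold. With 1 sample left out, the log2 fold change ran from -0.030 to 0.27 for *Per2* and from -0.028 to 0.83 for *Dbp*, both lowest and below 0 without CTX replicate 1, and the other 8 members kept their direction in all alternatives run. The ratio of *Nr1d1* over *Arntl* differed by 1.75 to 2.08 with 1 sample left out and by 1.69 at a pseudocount of 1.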

Other observations

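Other lists describe genes known to respond to cAMP and CREB signalling or to glucocorticoids, though not to these signals alone. Whether either signal acted on *Per1* here was not tested. Of 10 early genes of cAMP and CREB signalling, 9 were tested, 6 rose and 0 fell, with a median log2 fold change of 1.78. Among all genes tested, 1.40% rose and 0.360% fell, with a median of -0.01. *Fos*, *Fosb* and *Junb*, which encode subunits of AP-1, rose with log2 fold changes of 1.85, 1.86 and 1.78 (limma adjusted p = 0.00104, 0.0052 and 0.00082). The orphan receptor genes *Nr4a1* and *Nr4a2* rose by 2.32 and 1.61 on the log2 scale, and *Sik1*, a kinase that restrains CREB signalling, by 1.42. The other 3 tested genes did not pass. *Gem* had a log2 fold change of 2.29 with groups that did not overlap (limma adjusted p = 0.062), and *Crem* had 0.05 and *Dusp1* had 0.38 with groups that overlapped. On the higher side, 7 of the 9 tested genes had groups that did not overlap, against 15.0% of all genes tested. The calls of *Nr4a2* and *Sik1* were lost without PBS replicate 1, 2 or 3 and without CTX replicate 3, with adjusted p-values up to 0.097 and 0.125. With a replicate block the calls of *Nr4a2*, *Sik1* and *Fosb* were lost (adjusted p = 0.115, 0.138 and 0.071).

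Of 8 genes of the glucocorticoid response, all 8 were tested, 2 rose and 1 fell, with a median log2 fold change of -0.17. The shares of all genes tested were again 1.40% that rose and 0.360% that fell. *Klf9*, a zinc-finger factor gene that is also known to cycle, rose from 3.95 ± 0.398 to 9.83 ± 0.158 FPKM (mean ± SD, n = 3; log2 fold change 1.30, limma adjusted p = 0.0025). *Pdk4*, which encodes a brake on glucose oxidation, rose from 5.59 ± 0.618 to 18.3 ± 5.22 FPKM (log2 fold change 1.66, adjusted p = 0.021). *Mt2*, a metallothionein gene, fell from 16, 18 and 12 reads under PBS to 5, 3 and 2 reads under CTX (log2 fold change -1.98, adjusted p = 0.042). The calls of *Pdk4* and *Mt2* were lost without PBS replicate 1, 2 or 3 and without CTX replicate 3, with adjusted p-values up to 0.112 and 0.243, and with a replicate block (adjusted p = 0.098 and 0.140). The call of *Mt2* was lost in 9 of 16 alternatives. *Fkbp5*, the gene most often read for this response, had 76.3 to 81.7 FPKM after PBS and 49.1 to 82.7 FPKM after CTX treatment.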
